A study of Sus scrofa with 42 samples.

Results

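The mitochondrial ribosomal protein genes were followed through the first cleavages of the pig embryo, in fertilized embryos (IVF, in vitro fertilization) and in unfertilized ones set off by a pulse (PA, parthenogenetic activation). Members were the rows of the deposited gene table whose symbol is MRPL or MRPS followed by a digit, and 57 of its 15351 genes met this rule: 36 of the large subunit (MRPL) and 21 of the small subunit (MRPS). They lay on 17 chromosomes. A further 9 rows carry only an identifier that RefSeq pairs with a symbol of this pattern and were counted only as an alternative, and MRPS36 was not analysed here.

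Mitochondria keep their own ribosome, which translates the few mRNAs of the mitochondrial genome into subunits of the respiratory chain and the ATP synthase. Its RNAs are encoded in the mitochondrial DNA, whereas every one of its proteins is encoded in the nucleus, made in the cytosol and imported, so that nuclear transcription sets the supply of ribosomal proteins in the organelle. Mammalian oocytes carry a large store of mitochondria and of maternal RNA, and the embryo cleaves on this store until its own genome is transcribed.

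The values are FPKM (fragments per kilobase of gene, scaled to the mapped reads) from RNA-seq of 42 single cells, 21 per method, of 20 embryos in 8 groups. Oocytes from slaughterhouse ovaries of gilts, matured in vitro and stripped of cumulus cells, were either incubated with fresh semen in a medium with caffeine or given an electric pulse and then held in 6-dimethylaminopurine with cytochalasin B, and both kinds were grown in PZM-3 medium. The 1-cell embryos were taken at 19 h, the 2-cell at 27 h, the 4-cell at 48 h and the 8-cell at 72 h after the end of sperm incubation or after the pulse. Each method gave 3 embryos at the 1-cell stage, 3 at the 2-cell stage (6 blastomeres), 3 at the 4-cell stage (9 blastomeres) and 1 at the 8-cell stage (3 blastomeres). PA embryos have no paternal genome. The breed was not given in the sources used here, and the 8-cell groups are 1 embryo each, so no comparison with them has a replicate on that side.

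Reads on genes, recovered from the FPKM, ran from 4316345 to 15035941 per cell, and 1 read was worth a median of 0.0175 FPKM over the members. In the shallowest cells 1 read was worth up to 0.109 FPKM for a member that passed the filter used for testing, and up to 1.27 FPKM for one that did not. Of the oocyte markers fixed for the check, 7 of 9 were in the table, with summed FPKM of 853 to 1013 in IVF 1-cell embryos and 822 to 1039 in PA 1-cell embryos, against 6.96 to 197 and 1.56 to 87.1 in the IVF and PA 8-cell blastomeres. FIGLA and ZP3 were at 0 in every 8-cell blastomere, but FIGLA was also at 0 in every IVF 4-cell, PA 1-cell and PA 2-cell library. ZP4 did not fall in IVF: it was at 76.2, 72.4 and 61.0 FPKM in the 1-cell embryos and 65.2 in the 8-cell embryo. Most of the latter came from blastomere 1-3, at 195. In PA it went from 347, 109 and 79.0 to 0.130. Of 10 cumulus and granulosa markers 4 were in the table and summed to at most 18.5 in any cell, and the 1 of 4 sperm markers present, AKAP4, was at 0 in every 1-cell embryo. AKAP4 reached 1.82 FPKM in an IVF and 9.02 in a PA 4-cell blastomere, although PA embryos receive no sperm. The median share of FPKM taken by mitochondrial mRNAs rose from 17.1% in IVF 1-cell embryos to 52.3% in IVF 8-cell blastomeres and from 13.2% to 45.5% in PA. That share lowers every nuclear gene in proportion. With nuclear genes rescaled to their own sum, 21 of the 25 calls of members reported here were kept, and the members up in the PA 8-cell embryo fell from 8 to 6 against the 4-cell and from 8 to 6 against the 1-cell stage. A pair of PA 4-cell libraries (blastomeres 1-4 and 2-1) nearly repeated PA 2-cell libraries (1-2 and 2-1), each with a correlation of log2 values over all genes of 0.999, where the next closest pair in the series reached 0.931. Sums, detection and most calls of members that rest on the PA 4-cell group are therefore given with and without them. Other values of that group include them unless stated.

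MRPS11, a small subunit protein of bacterial type, is shown with its promoter because it rose in all 4 comparisons with the 8-cell stage and shares its start region with MRPL46, another member that rose. On Sscrofa11.1 (coordinates from the RefSeq annotation) the RefSeq start of MRPS11, on the minus strand of chromosome 1, and that of MRPL46, on the plus strand, lie 38 bases apart. The deposited table gives MRPS11 at chr1:191306305-191321638 and MRPL46 at chr1:191321999-191331319, and its start of MRPS11 lies 313 bases downstream of the RefSeq one. MRPL45, a large subunit protein at the polypeptide exit that ties the ribosome to the inner membrane, was added after its values were seen, because its rise in IVF was the clearest case of a single blastomere. Capitals mark matches to the binding motifs searched on both strands, NRF1 as GCGCANGCG, ETS factors as CCGGAA, YY1 as AAGATGG and SP1 as GGGCGG. None of the 4 is in the interval between MRPS11 and MRPL46. The first run is that whole interval, chr1:191321952-191321989, written 5′ to 3′ on the strand of MRPS11. The second is the 250 bases before the start of MRPL45, chr12:23766477-23766726, on its minus strand, with an NRF1 match at -199 and an SP1 match on the opposite strand at -86 from the start.
MRPS11: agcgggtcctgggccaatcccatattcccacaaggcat
MRPL45: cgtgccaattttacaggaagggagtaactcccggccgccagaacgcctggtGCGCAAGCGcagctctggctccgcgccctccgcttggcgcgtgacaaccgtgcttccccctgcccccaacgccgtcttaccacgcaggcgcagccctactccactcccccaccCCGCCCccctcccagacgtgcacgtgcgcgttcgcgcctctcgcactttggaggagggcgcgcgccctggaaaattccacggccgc

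Over the 55 members with a RefSeq start, 19 (34.5%) held the ETS motif in the 250 bases before it, against 13.6% of 19531 promoters of the same length. NRF1, a factor known for nuclear genes of the respiratory chain, had its motif in 7 members (12.7%, against 6.59%), and YY1 likewise in 7 (12.7%, against 3.73%). SP1 was in 27 (49.1%, against 45.9%). A gene starting within 1000 bases in the opposite direction stood before 12 members (21.8%, against 8.63% of all promoters), among them MRPS11 and MRPL46 for each other, NCAPD2 for MRPL51, IMMT for MRPL35 and TCP1 for MRPL18. A match of letters is a description and not a bound site.

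The summed FPKM of the 57 members was of like size at the 1- and 2-cell stages and highest in the 8-cell embryos. Over IVF embryos it was 158 ± 20.9 at the 1-cell, 151 ± 33.6 at the 2-cell and 225 ± 166 at the 4-cell stage (SD, n = 3 each), and the 8-cell embryo stood at 450. Over PA embryos it was 179 ± 32.7, 143 ± 43.5 and 102 ± 13.3 (SD, n = 3 each) and 609. Without the near-repeat libraries the PA 4-cell value was 77.6 ± 24.1 (SD, n = 3). By cell, the IVF 8-cell blastomeres (289 to 647) and the PA 8-cell blastomeres (347 to 926) lay above every 1- and 2-cell library of their method (108 to 189 and 80.2 to 215). Only the IVF 4-cell group, whose cells ran from 47.0 to 737, overlapped the 8-cell range. As a share of the FPKM of nuclear genes, the members took 0.141%, 0.139%, 0.176% and 0.341% at the 4 IVF stages and 0.180%, 0.139%, 0.109% and 0.481% at the 4 PA stages, with 0.0882% at the PA 4-cell stage without the near repeats. FPKM are shares of a library, so more transcript of these genes and less RNA of other genes per cell cannot be told apart.

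**Figure D1:**
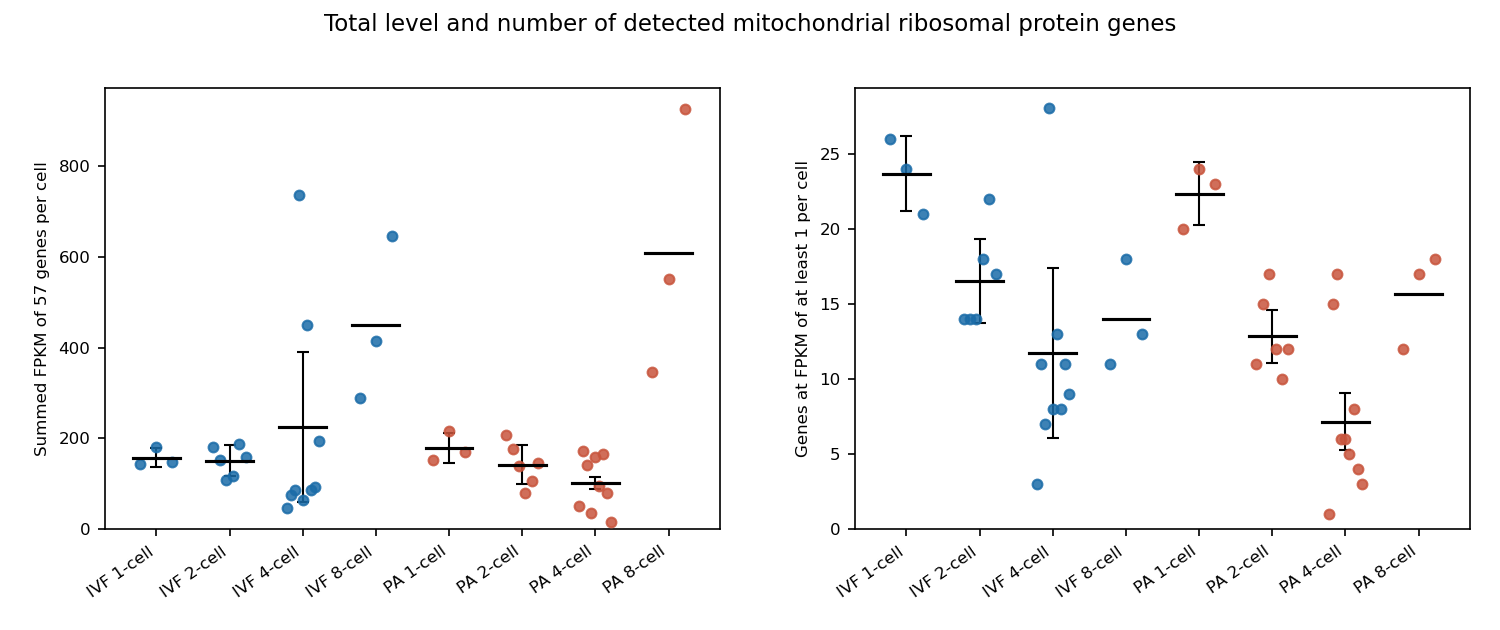
Summed FPKM of the 57 mitochondrial ribosomal protein genes (left) and number of them at FPKM of at least 1 (right) in each of the 42 cells, by method and stage. Dots are cells, lines are means over embryos and bars are the SD over 3 embryos; the 8-cell groups are 1 embryo each and have no bar. The sum is highest at the 8-cell stage while the number detected falls to its lowest at the PA 4-cell stage.

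Fewer members were detected at the 8-cell than at the 1-cell stage, beside the higher sum. At FPKM of at least 1, IVF embryos held 23.7 ± 2.52 members at the 1-cell, 16.5 ± 2.78 at the 2-cell and 11.8 ± 5.65 at the 4-cell stage (SD, n = 3 each), and the 8-cell embryo 14 per blastomere. PA embryos held 22.3 ± 2.08, 12.8 ± 1.76 and 7.17 ± 1.89 (SD, n = 3 each) and 15.7 per blastomere, and without the near repeats the PA 4-cell value was 3.89 ± 2.52 (SD, n = 3), with 1 to 8 in the 7 blastomeres. As a median over cells, the share of the members at FPKM of at least 1 went from 42.1% at the IVF 1-cell to 22.8% at the IVF 8-cell stage. In PA it went from 40.4% to 29.8%. Over all genes of the table the same share went from 37.5% to 13.3% in IVF and from 31.5% to 11.7% in PA. At the PA 4-cell stage the shares were 10.5% of the members and 11.3% of all genes. A single member took a median of 18.6% of the summed FPKM in IVF 1-cell embryos and 16.7% in PA 1-cell embryos, 40.4% and 50.3% at the 4-cell stage and 34.1% and 19.3% at the 8-cell stage. Without the near repeats the PA 4-cell shares were 55.9% for the top member, 8.77% of the members and 10.5% of all genes.

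The members detected in every cell of a group were fewer after the 1-cell stage. The groups hold 3, 6, 9 and 3 cells in order of stage, and such a count falls as cells are added. Only the 1- and 8-cell groups are alike in size, and a blastomere holds only a part of its embryo. Whether detection became more specific to the cell was therefore not tested. In the 3 IVF 1-cell embryos 18 members were at FPKM of at least 1 in every cell, and in the 3 PA 1-cell embryos 16. In the 2-cell groups the number was 6 in IVF and 4 in PA (MRPL11, MRPL43, MRPS14 and MRPS25), and in both 4-cell groups it was 0. It was 2 in the IVF 8-cell embryo (MRPL47 and MRPL49) and 4 in the PA 8-cell embryo (MRPL1, MRPL18, MRPL49 and MRPL51). Counted over any cell of the group, a count that rises as cells are added, 44 of the 57 reached FPKM 1 at the IVF 4-cell stage. It was 32 at the PA 4-cell stage (18 without the near repeats) and 30 in each 8-cell embryo. Of the members found in an embryo, the share found in all its sequenced blastomeres was 40.0 to 56.0% in IVF and 29.4 to 44.4% in PA at the 2-cell stage, beside 56.5 to 62.0% and 45.4 to 49.6% for nuclear genes as a whole. It was 0 to 20% in IVF and 4.00 to 8.33% in PA at the 4-cell stage, beside 8.58 to 31.1% and 8.36 to 24.4%. Without the near repeats it was 8.33% in each of the 2 PA 4-cell embryos that kept several blastomeres, beside 10.97% and 14.5%. In the 8-cell embryos it was 6.67% (IVF) and 13.3% (PA), beside 16.3% and 15.4%. This share falls as more blastomeres of an embryo are sequenced. These were 2 at the 2-cell, 2 to 4 at the 4-cell and 3 at the 8-cell stage, so the stages are not alike in it. The values for nuclear genes come from the same blastomeres.

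**Figure D2:**
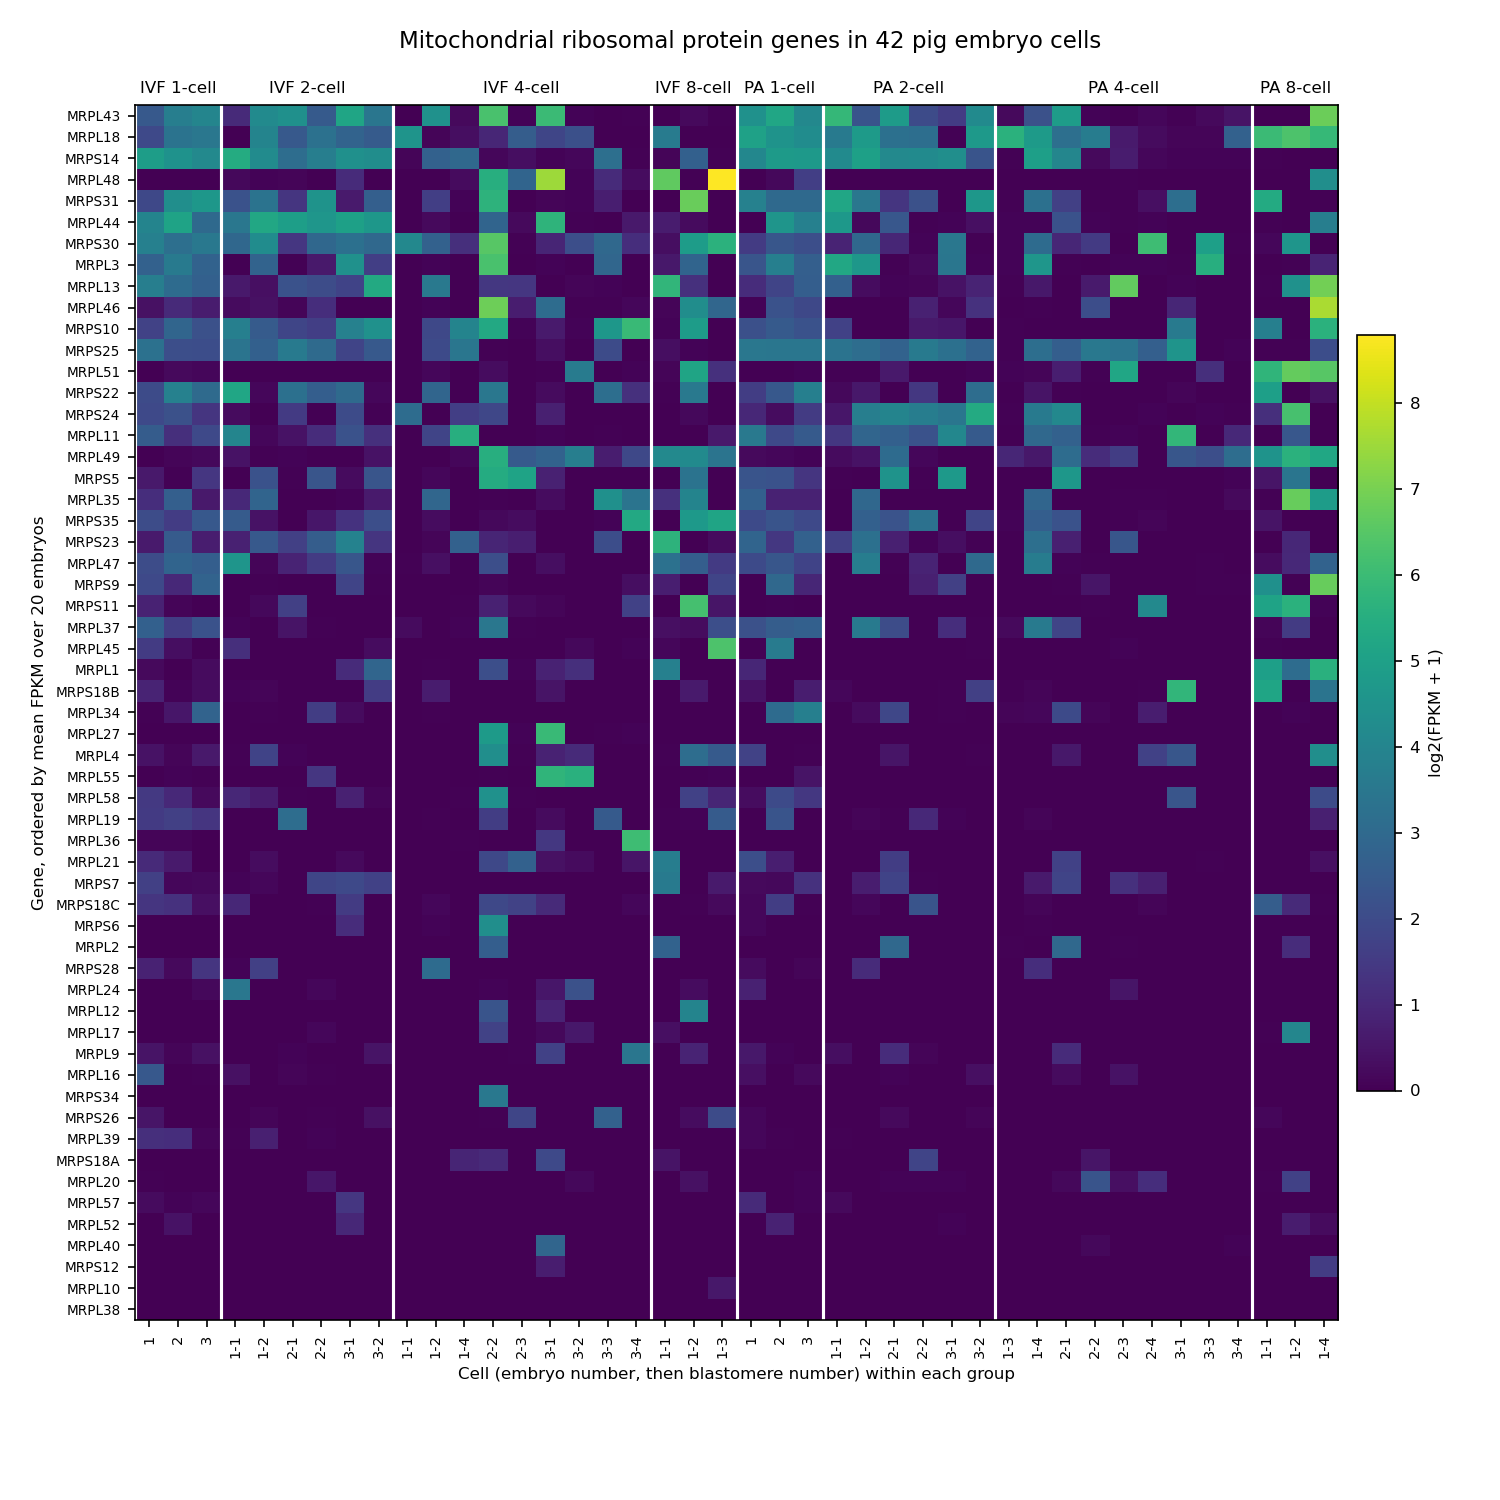
Level of each of the 57 mitochondrial ribosomal protein genes (rows, ordered by mean) in each of the 42 cells (columns, grouped by method and stage), as log2(FPKM + 1). The 1-cell columns hold many genes at intermediate levels. The 4- and 8-cell columns hold fewer genes at FPKM of at least 1, except IVF 4-cell blastomere 2-2 with 28. The genes detected often differ between blastomeres of these stages. MRPL1, MRPL18, MRPL49 and MRPL51 are nevertheless in every PA 8-cell blastomere, and MRPL47 and MRPL49 in every IVF one.

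The members with the highest mean over the 20 embryos were MRPL43 (15.6 ± 12 FPKM), MRPL18 (14 ± 15.8), MRPS14 (13.8 ± 10.4), MRPL48 (13.1 ± 41.1), MRPS31 (10.8 ± 10.2) and MRPL44 (10.3 ± 11.15; SD, n = 20 each). MRPS14, a small subunit protein, was at 16.8 to 28.8 FPKM in the 3 IVF and 15.6 to 26.5 in the 3 PA 1-cell embryos. MRPL44, mutated in an inherited cardiomyopathy, was at 14.6, 33.8 and 6.99 FPKM in the IVF 1-cell embryos, 23.8, 26.5 and 27.4 in the IVF 2-cell, 0.0650, 3.19 and 13.0 in the IVF 4-cell and 0.264 in the IVF 8-cell embryo. In PA it was at 0, 22.9 and 13.3 at the 1-cell, 12.4, 2.12 and 0.169 at the 2-cell and 0.0592, 0.935 and 0 at the 4-cell stage, and 4.25 in the 8-cell embryo. Thus 2- and 4-cell embryos of IVF did not overlap for MRPL44, and none of its changes passed the test. MRPS31, found in the mammalian but not the bacterial ribosome, was at 109 FPKM in IVF 8-cell blastomere 1-2 and at 0 in the other two, and at 41.0, 0 and 0.0294 in the PA 8-cell blastomeres. MRPL18, which binds 5S ribosomal RNA in bacteria, was at 62.5, 79.9 and 58.0 FPKM in the PA 8-cell blastomeres, above 1.97 to 37.4 in the PA 4-cell embryos, and at 11.7, 0.0109 and 0.0123 in the IVF 8-cell blastomeres. Its change from the PA 4-cell to the 8-cell stage was 2.93 ± 1.15 (log2, SE; limma, Benjamini-Hochberg adjusted p = 0.134), which did not pass the test.

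For the tests, each embryo was the mean of its cells and limma was fitted to log2(FPKM + 1) over all 8 groups, on the 8116 genes that reached FPKM 1 in 3 or more cells. On this scale the change of a low gene is understated. Of the 57 members 42 passed the filter (24 of the large and 18 of the small subunit). Of the 15 others, 8 reached FPKM 1 in 2 cells, 4 in 1 cell and 3 in none (MRPL10, MRPL38 and MRPL52), and none was at 0 in every cell. A gene was called where the Benjamini-Hochberg adjusted p over all 8116 genes was under 0.05 and the change at least 2-fold. Because the 8-cell embryos stand alone, those contrasts take their spread from the other groups and assume that an 8-cell embryo varies as they do. Nothing states whether embryos of a group came from separate cultures or sows, so the p-values measure the spread between these embryos only.

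No member was called before the 8-cell stage. From the 1-cell to the 2-cell stage limma called 0 of 42 in IVF (0% of all genes) and 0 of 42 in PA (0.0986% of all genes), with 2 and 3 members at an unadjusted p under 0.05, beside 216 and 394 of the 8116 genes. From the 2-cell to the 4-cell stage it called 0 members in IVF (1.11% of all genes) and 0 in PA (0.394%). An unadjusted p under 0.05 held for 6 and 3 members, beside 1432 and 873 of the 8116 genes. The median change of the members over these steps was -0.10 and 0.23 (log2) in IVF and -0.30 and -0.08 in PA, beside -0.11, -0.23, -0.09 and -0.17 over all genes. The IVF result at the 4-cell stage turned on embryo 1. Without it 6 members were called, with MRPL46, MRPL48, MRPL49 and MRPS26 up and MRPS14 and MRPS25 down. For fits without an embryo or without the near-repeat libraries, the share of all genes called is not given here. Their counts of members are therefore not set against all genes.

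The PA 2-cell to 4-cell result turned on the near-repeat libraries. Without them 3 members fell: MRPS14 by 4.00 ± 0.69, MRPL43 by 3.95 ± 0.73 and MRPS24 by 3.78 ± 0.72 on the log2 scale (SE; limma, Benjamini-Hochberg adjusted p = 0.00164, 0.00274 and 0.00327). MRPL43 and MRPS14 are a large and a small subunit protein, and MRPS24 is the counterpart of bacterial S3. With all libraries, MRPS14 was at 24.4, 17.0 and 11.7 FPKM in the PA 2-cell embryos and 15.3, 4.08 and 0.0632 in the PA 4-cell embryos, and the groups overlapped. Without the near repeats these were 0.0265, 0.291 and 0.0632, below every 2-cell embryo. In IVF it was at 29.7, 10.3 and 19.6 FPKM at the 2-cell and 4.21, 0.190 and 2.11 at the 4-cell stage, with no overlap, and it fell by 2.84 ± 0.69 (log2, SE; limma, Benjamini-Hochberg adjusted p = 0.0476) in the fit without the near repeats.

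From the 4-cell to the 8-cell stage of IVF, 2 of the 42 members rose (3.72% of all genes were called up) and 1 fell (3.25% down). The 42 had a median change of 0.25 (log2) and 28 were positive, beside a median of -0.38 over all genes. MRPS11 was at 0.0121, 0.466 and 0.582 FPKM in the 4-cell embryos and 24.1 in the 8-cell embryo, a change of 4.24 ± 0.85 (log2, SE; limma, Benjamini-Hochberg adjusted p = 0.00326). Within that embryo its 3 blastomeres held 0.0196, 71.9 and 0.416 FPKM, from 1, 9692 and 50 reads. MRPL45 was at 0, 0 and 0.0512 FPKM at the 4-cell stage and at 26.5 in the 8-cell embryo (4.76 ± 0.99; limma, Benjamini-Hochberg adjusted p = 0.00429), and 99.8% of this came from blastomere 1-3, at 79.4 FPKM. Each of these rises thus rested on 1 blastomere, and on a different one. Without that blastomere the change was -0.13 for MRPS11 and 0.06 for MRPL45, and neither was called.

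The member that fell was MRPL43, a large subunit protein found in mitochondria but not in bacteria. It was at 6.95, 38.2 and 15.8 FPKM in the IVF 4-cell embryos and at 0.0665 in the 8-cell embryo, whose blastomeres held 0, 0.168 and 0.0314, a change of -4.02 ± 1.12 (log2, SE; limma, Benjamini-Hochberg adjusted p = 0.0325). All 3 blastomeres were low, and the call was kept with each of them left out. At the 4-cell stage, however, only 3 of the 9 blastomeres were at FPKM of at least 1 (20.7, 76.4 and 62.9, 1 in each embryo), and the median over the 9 was 0.0642. The call was lost with a pseudocount of 5, with means of log2 values, with only the groups compared and with the embryo number as a replicate block, and in 1 of 18 fits that left out an embryo, at an adjusted p of 0.0544 in limma with Benjamini-Hochberg adjustment. MRPL43 (chr14:112068679-112070232) lies inside TWNK, the mitochondrial DNA helicase, on the opposite strand. Strand was not stated for the counting, so reads of the pair cannot be told apart.

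In PA embryos 8 of the 42 members rose from the 4-cell to the 8-cell stage (19%, where 6.81% of all genes were called up) and 0 fell (3.18% down). The median change was 0.71 (log2) over the members, 26 of them positive, and -0.15 over all genes. By subunit, 5 of 24 large and 3 of 18 small subunit members rose. Reads reached FPKM 1 in all 3 blastomeres for 2 of the 8, in 2 for 4 and in 1 for 2.

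Of those high in every PA 8-cell blastomere, MRPL1, the protein of the stalk beside the tRNA exit site, was at 0.00947, 0.00568 and 0.00636 FPKM in the PA 4-cell embryos and at 28.1 in the 8-cell embryo, with 29.9, 7.67 and 46.9 in its blastomeres. The change was 4.85 ± 0.80 (log2, SE; limma, Benjamini-Hochberg adjusted p = 0.000621). MRPL51, a large subunit protein without a bacterial counterpart, was at 0.0854, 9.13 and 0.427 FPKM at the 4-cell stage and at 82.4 in the 8-cell embryo, with 52.8, 105 and 89.4 in its blastomeres (5.06 ± 1.01; limma, Benjamini-Hochberg adjusted p = 0.00287). For both genes every 8-cell blastomere lay above every 4-cell embryo, and both were called whichever 8-cell blastomere was left out. With only the groups compared, however, none of the 8 risen members was called, these 2 included, and MRPS18C was called instead. MRPL1 lies at chr8:73305439-73414563 and MRPL51 at chr5:64166902-64168866.

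MRPS11 was high in 2 of the PA 8-cell blastomeres, at 33.0 and 48.7 FPKM (5908 and 4728 reads), and at 0.0518 (7 reads) in blastomere 1-4. The embryo mean of 27.3 stood against 0.00420, 4.16 and 0.0167 in the 4-cell embryos, a change of 4.02 ± 0.85 (log2, SE; limma, Benjamini-Hochberg adjusted p = 0.00423) that was called without any 1 blastomere. MRPL46, a large subunit protein whose gene starts 38 bases away, was at 0, 0 and 202 FPKM in the same blastomeres. Its 4-cell embryos held 0.0143, 0.802 and 0.313, and the change of 5.68 ± 1.48 (limma, Benjamini-Hochberg adjusted p = 0.0179) became -0.42 without blastomere 1-4. The neighbours were thus high in different cells of the PA embryo. In the IVF 8-cell embryo MRPL46 was at 0.0999, 19 and 6.5 FPKM and MRPS11 at 0.0196, 71.9 and 0.416, so that blastomere 1-2 was the highest for both.

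MRPS9, a small subunit protein near the site where the peptidyl-tRNA sits, was at 0.00499, 0.117 and 0.0191 FPKM in the PA 4-cell embryos and at 42.1 in the 8-cell embryo (20.4, 0.0245 and 106 in its blastomeres), a change of 5.36 ± 1.01 (log2, SE; limma, Benjamini-Hochberg adjusted p = 0.00186). MRPL35, a large subunit protein of bacterial type, was at 3.16, 0.0234 and 0.0643 FPKM and then at 45.0 (0.0433, 107 and 28.4), a change of 4.80 ± 1.38 (limma, Benjamini-Hochberg adjusted p = 0.0319). The call of MRPS9 was kept without any 1 blastomere, and that of MRPL35 was lost without blastomere 1-2. MRPS10, a small subunit protein named after its values were seen, was at 0.0121, 0.0104 and 3.65 FPKM and then at 20.4 (12.9, 0 and 48.1), a change of 3.67 ± 1.14 (limma, Benjamini-Hochberg adjusted p = 0.0463) that was not called without blastomere 1-4. MRPL43, which fell in IVF, was at 1.86, 7.06 and 0.192 FPKM in the PA 4-cell embryos and at 37.2 in the 8-cell embryo (3.66 ± 1.12; limma, Benjamini-Hochberg adjusted p = 0.0421). Its blastomeres held 0.0211, 0 and 112 FPKM, from 1, 0 and 4000 reads, so the rise rested on 1 cell, and without it the change was -1.58. The calls of MRPS10 and MRPL43 were kept in 6 and 7 of 18 fits that left out an embryo. Without the near-repeat PA 4-cell libraries 9 members rose, these 8 and MRPS24.

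**Figure D3:**
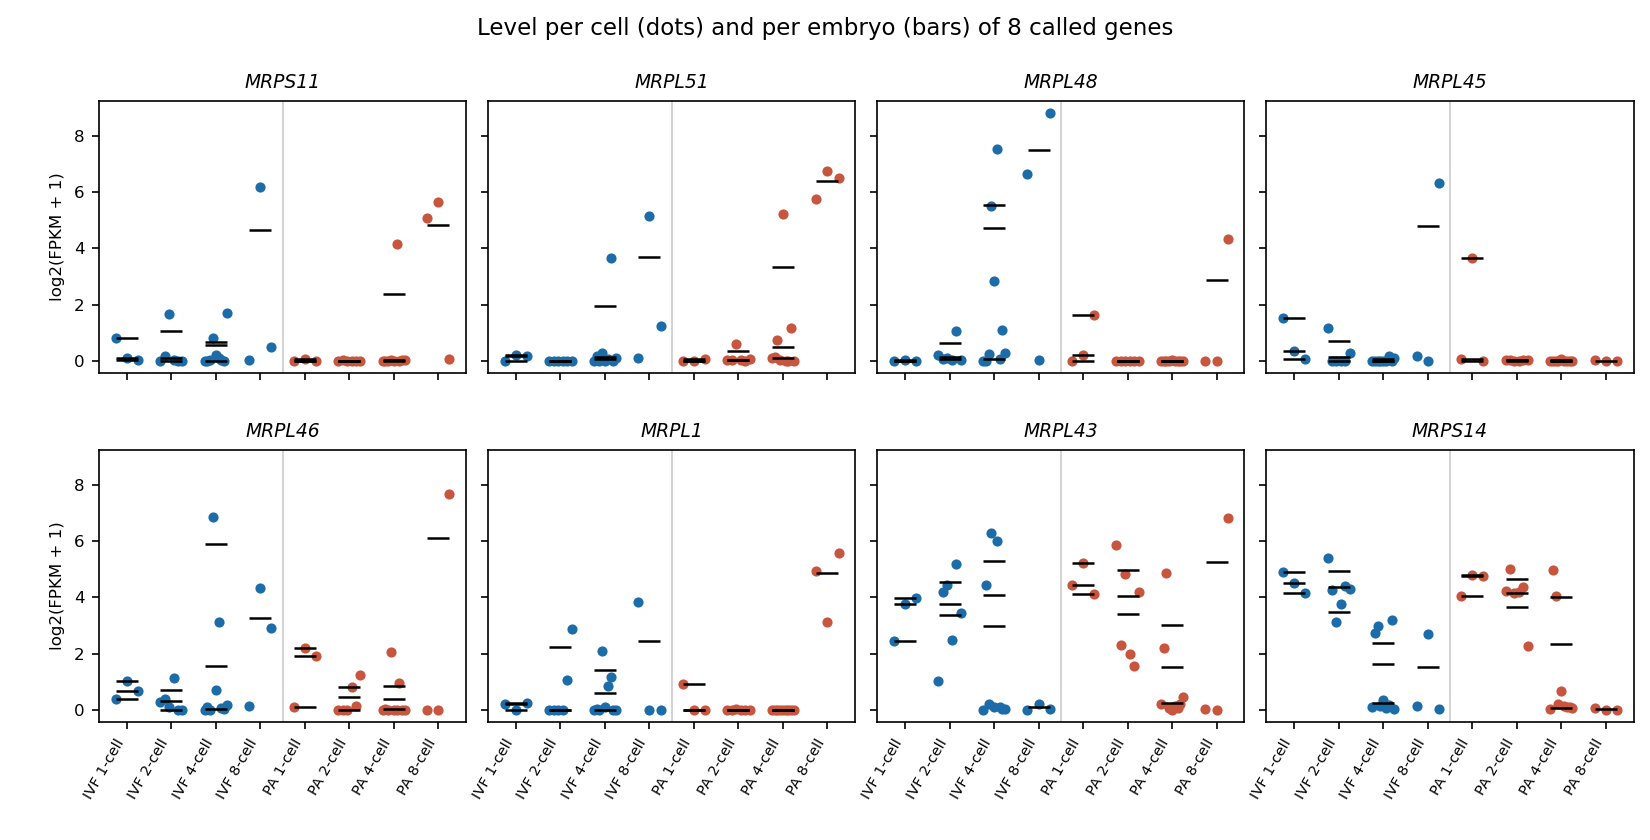
Levels of 8 called genes (MRPS11, MRPL51, MRPL48, MRPL45, MRPL46, MRPL1, MRPL43 and MRPS14) as log2(FPKM + 1), by method and stage. Dots are cells and bars are embryos. MRPL51 and MRPL1 are high in all 3 PA 8-cell blastomeres. Among 8-cell blastomeres MRPL45 is high in 1 of IVF and MRPL46 highest in 1 of PA. MRPS14 is high at the 1- and 2-cell stages and lower in most later cells. The near-repeat PA 4-cell libraries 1-4 and 2-1 hold it at 30.6 and 15.4 FPKM, and IVF 4-cell blastomeres reach 8.23.

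Set against the 1-cell embryos, the IVF 8-cell embryo had 4 members up (9.52%, where 6.03% of all genes were called up) and 0 down (8.23% down), with a median change of 0.16 (log2) over the members and -0.77 over all genes. At an unadjusted p under 0.05, 7 members rose and 4 fell, beside 29.6% of all genes in either direction. MRPL48, a large subunit protein, changed the most. It was at 0, 0.0235 and 0 FPKM in the IVF 1-cell embryos, 0.0998, 0.0482 and 0.565 at the 2-cell stage, 0.0607, 25.5 and 45.8 at the 4-cell stage and 181 in the 8-cell embryo, a change of 7.49 ± 1.39 (log2, SE; limma, Benjamini-Hochberg adjusted p = 0.00119). The blastomeres held 98.4, 0.0265 and 444 FPKM, the last from 14962 reads. In PA, MRPL48 was at 0, 0.149 and 2.12 FPKM at the 1-cell stage, at 0 in all 2-cell embryos, at 0, 0.00804 and 0 at the 4-cell stage and at 6.38 in the 8-cell embryo (0, 0 and 19.1 in its blastomeres). The blastomeres of the 8-cell embryos overlapped between the methods, and the difference was not tested.

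MRPS11 stood at 0.772, 0.0857 and 0.0142 FPKM in the IVF 1-cell embryos and changed by 4.33 ± 0.85 to the 8-cell embryo (log2, SE; limma, Benjamini-Hochberg adjusted p = 0.00193). MRPL45 stood at 1.86, 0.267 and 0.0442 FPKM and changed by 4.14 ± 0.99 (limma, Benjamini-Hochberg adjusted p = 0.00844). MRPL51 was at 0, 0.173 and 0.124 FPKM in the IVF 1-cell embryos and at 11.8 in the 8-cell embryo (0.0854, 34.1 and 1.34 in its blastomeres), a change of 3.55 ± 1.01 (limma, Benjamini-Hochberg adjusted p = 0.0241). For none of the 3 did the 1-cell embryos overlap the 8-cell embryo. The same held for every member called between stages, so it is not evidence apart from the call. Each of the 3 calls was lost without the highest blastomere, while that of MRPL48 was kept without any.

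In PA the same comparison had 8 members up (19%, where 7.58% of all genes were called up) and 1 down (6.21% down), with a median change of 0.33 (log2) over the members and -0.58 over all genes. It shares its 8-cell embryo with the comparison from the 4-cell stage, so the lists are not independent. MRPL51 was at 0, 0 and 0.0557 FPKM in the PA 1-cell embryos and changed by 6.36 ± 1.01 (log2, SE; limma, Benjamini-Hochberg adjusted p = 0.000355). MRPL1 was at 0.903, 0.00504 and 0 FPKM (4.55 ± 0.80; limma, Benjamini-Hochberg adjusted p = 0.000888), and MRPS11 at 0.00967, 0.0417 and 0.0128 (4.79 ± 0.85; limma, Benjamini-Hochberg adjusted p = 0.000890). MRPS9 was at 0.0115, 6.93 and 0.910 FPKM (4.12 ± 1.01; limma, Benjamini-Hochberg adjusted p = 0.0106), a call lost without blastomere 1-4. MRPL46 was at 0.0741, 3.62 and 2.77 FPKM (4.69 ± 1.48; limma, Benjamini-Hochberg adjusted p = 0.0411), and its change without blastomere 1-4 was -1.41.

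The other members called in PA 8-cell against 1-cell embryos had not been called from the 4-cell stage. MRPL49, a large subunit protein of mitochondria, was at 0.156, 0.126 and 0.0513 FPKM at the 1-cell, 0.266, 3.73 and 0.00935 at the 2-cell and 0.707, 2.73 and 5.06 at the 4-cell stage and at 35.4 in the 8-cell embryo, with 21.8, 47.7 and 36.6 in its blastomeres. The change was 5.03 ± 1.31 (log2, SE; limma, Benjamini-Hochberg adjusted p = 0.0152), and it was the same gene that stood at 16.8, 17.5 and 9.34 FPKM in the IVF 8-cell blastomeres. MRPL49 overlaps an unnamed gene on the opposite strand over 5929 bases, with a correlation of 0.93 over the 42 cells, so its reads may be shared. MRPS24, named after its values were seen, was at 0.986, 0.223 and 1.92 FPKM at the 1-cell stage and at 25.2 in the 8-cell embryo (1.29, 74.4 and 0 in its blastomeres; 3.77 ± 1.17; limma, Benjamini-Hochberg adjusted p = 0.0374), with a change of -0.22 without blastomere 1-2. MRPS24 was already at 6.49, 13.5 and 25.3 FPKM in the PA 2-cell embryos, and at 5.64, 4.04 and 0.0370 in the PA 4-cell embryos. MRPS18B was at 0.346, 0.0187 and 0.617 FPKM and then at 14.8 (34.9, 0 and 9.51; 3.60 ± 1.13; limma, Benjamini-Hochberg adjusted p = 0.0394), a call lost without blastomere 1-1. Of the 18 fits that left out an embryo, MRPL46 was called in 9, MRPS18B in 11, MRPS24 in 16 and the others in all.

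MRPS14 fell by 4.51 ± 1.19 from the PA 1-cell to the 8-cell stage (log2, SE; limma, Benjamini-Hochberg adjusted p = 0.0165), from 15.6, 26.5 and 26.1 FPKM to 0.0147, and all 3 of its 8-cell blastomeres were at 0.0441 or below. In IVF it went from 28.8, 21.5 and 16.8 FPKM to 1.87 (0.0926, 5.49 and 0.0262 in the blastomeres), a change of -2.99 ± 1.19 (limma, Benjamini-Hochberg adjusted p = 0.0983), and passed the test in the fit without the near repeats. The 1- and 8-cell embryos did not overlap in either method.

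**Figure D4:**
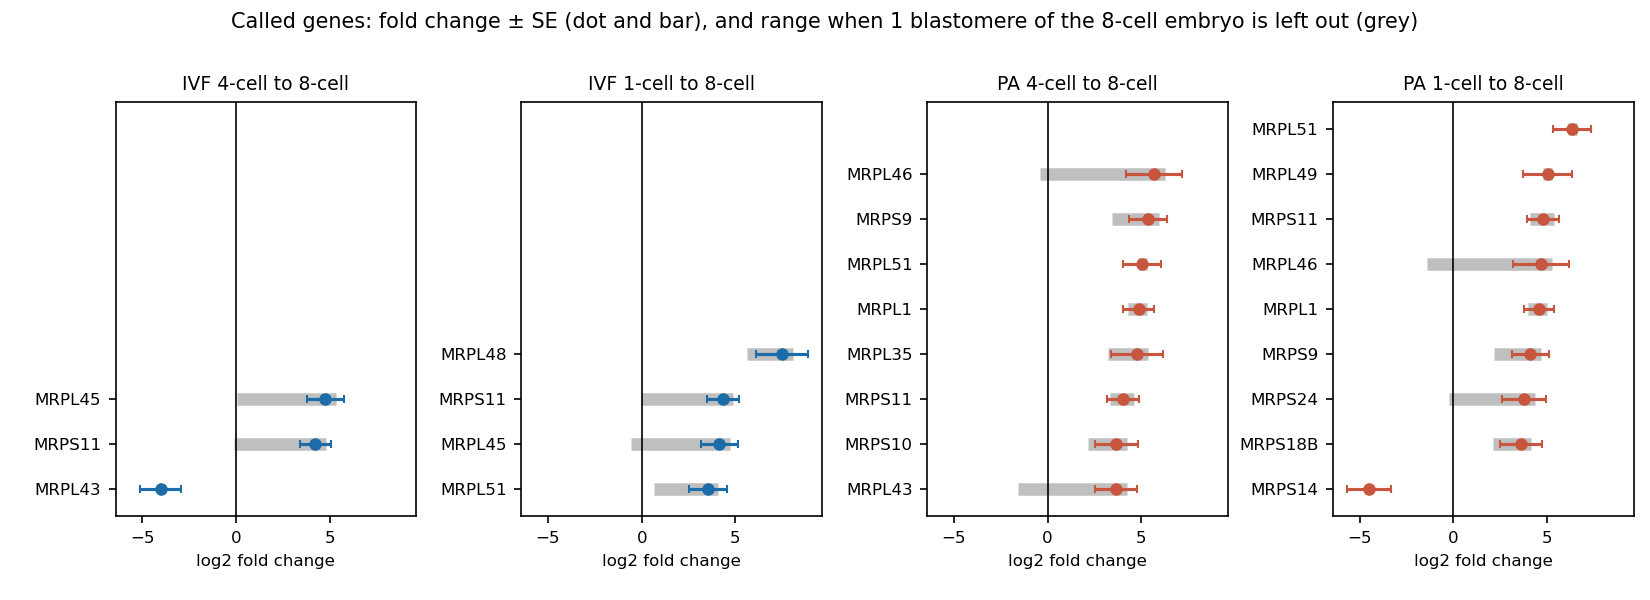
Change (log2, on the FPKM + 1 scale) of each called member in the 4 comparisons with the 8-cell stage. Points are the estimates of limma and bars are SE; grey lines give the range of the estimate when 1 blastomere of the 8-cell embryo is left out. The grey line of MRPS11, MRPL45, MRPL46, MRPL43 or MRPS24 reaches 0 or beyond in at least 1 comparison, while those of MRPL51 and MRPL1 in PA and MRPL48 in IVF stay well above it.

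The size of these lists depends on how libraries are scaled. Median-ratio scaling over genes moved the median change of all genes by 0.77 (log2) from the IVF 1-cell, 0.33 from the IVF 4-cell, 0.52 from the PA 1-cell and -0.03 from the PA 4-cell to the 8-cell stage. Under it the members up were 16 (38.1%, beside 20.3% of 7357 genes tested), 16 (38.1%, beside 13.2%), 19 (45.2%, beside 23.4%) and 17 (40.5%, beside 16.3%). The medians in turn depend on single blastomeres: without IVF 8-cell blastomere 1-2 the median of the members was -0.07 from the 4-cell and -0.09 from the 1-cell stage, and without PA 8-cell blastomere 1-4 it was -0.0019 and -0.14.

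Between the methods, limma called 0 members at the 1-cell stage (0.0493% of all genes). It also called 0 at the 2-cell (0% of all genes) and 0 at the 4-cell stage (0.554%). An unadjusted p under 0.05 held for 0, 4 and 6 members, beside 4.09%, 5.43% and 14% of all genes. The median difference of IVF against PA over the members was 0.00, 0.01 and 0.29 (log2), beside 0.24, 0.25 and 0.23 over all genes. Without the near-repeat PA 4-cell libraries 2 members were higher in IVF at the 4-cell stage, MRPL43 by 3.94 ± 0.73 and MRPS10 by 3.11 ± 0.81 (log2, SE; limma, Benjamini-Hochberg adjusted p = 0.00541 and 0.0363). MRPS10 was at 5.81, 19.3 and 21.6 FPKM in the IVF 4-cell embryos and 0.0121, 0.0104 and 3.65 in the PA 4-cell embryos, with no overlap, and MRPL43 at 6.95, 38.2 and 15.8 against 1.86, 7.06 and 0.192, with a slight overlap. Without the near repeats the PA embryos stood at 0.0241, 0.00781 and 3.65 FPKM for MRPS10 and at 0.158, 0.0574 and 0.192 for MRPL43, and neither gene overlapped. Without IVF 4-cell embryo 1, MRPL43, MRPL48, MRPS10 and MRPS26 were called higher in IVF and MRPS25 lower.

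The change itself was also tested for a difference between methods. It called 0 members from the 1-cell to the 2-cell stage (0% of all genes). From the 2-cell to the 4-cell stage it also called 0 (0% of all genes). In this test an unadjusted p under 0.05 held for 2 and 4 members, beside 2.8% and 5.35% of all genes. From the 4-cell to the 8-cell stage it called MRPL43 alone (2.86% of all genes), whose change in IVF minus that in PA was -7.69 ± 1.58 (log2, SE; limma, Benjamini-Hochberg adjusted p = 0.0136). Without PA 8-cell blastomere 1-4 this was -2.45 and was not called. The 8-cell embryos, compared by values only, both held 20 of the members at FPKM of at least 1 in some blastomere, 10 others reached it only in IVF, 10 only in PA and 17 in neither.

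Members with a role of their own were followed whatever their values. Of the stalk that recruits translation factors, MRPL12 was at 3.89 FPKM in IVF 4-cell blastomere 2-2, 0.836 in 3-1 and 14.6 in IVF 8-cell blastomere 1-2, and at 0 in every PA 1-, 4- and 8-cell library. MRPL10, its anchor, was seen as 1 read in 1 cell and overlaps SCRN2 over 7439 bases. MRPL11, at the base of the stalk, was at 1.28 to 4.87 FPKM in IVF and 2.87 to 10.8 in PA 1-cell embryos, and at 0.169 and 1.44 in the 8-cell embryos. MRPS12, of the decoding site, had 1 read in IVF 4-cell blastomere 3-1 and 4 reads in PA 8-cell blastomere 1-4. MRPL58, a peptidyl-tRNA hydrolase built into the large subunit, reached 21.0 FPKM in IVF 4-cell blastomere 2-2 and was at 0 in every PA 2-cell library. MRPL11 and MRPL58 passed the filter and were called in no comparison, and MRPL12, MRPL10 and MRPS12 did not pass it.

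The 3 paralogs of bacterial S18 had unlike levels. MRPS18B was the member called in PA above, MRPS18C stayed at or below 5.05 FPKM in every cell, and MRPS18A reached no more than 2.84 FPKM and was above 0 in 6 cells. In the main fit none of the comparisons called MRPS18A or MRPS18C. MRPL3, a disease gene of the large subunit, was at 5.70, 11.14 and 5.78 FPKM in IVF and 4.02, 12.8 and 5.34 in PA 1-cell embryos and at 2.21 and 0.284 in the 8-cell embryos, and was not called. MRPL36 was at 65.3 FPKM (1368 reads) in IVF 4-cell blastomere 3-4 and reached FPKM 1 in 1 other cell. The lowest means over the 20 embryos were those of MRPL38 (0.000362 FPKM), MRPL10 (0.00825) and MRPS12 (0.0399).

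Genes that work with the mitochondrial ribosome were read from lists. Of 14 translation factors tested, 2 rose from the 4-cell to the 8-cell stage in IVF and 3 in PA, and 2 and 3 from the 1-cell stage, with none falling. Over all genes 3.72%, 6.81%, 6.03% and 7.58% were called up in these comparisons. TUFM, the elongation factor that brings aminoacyl-tRNA to the ribosome, changed most from the PA 4-cell stage, from 0.0427, 0.760 and 0.0383 FPKM to 50.9 (5.39 ± 1.08 log2, SE; limma, Benjamini-Hochberg adjusted p = 0.00286). MTRF1L, a release factor, changed by 5.93 ± 1.47 from the PA 1-cell stage (limma, Benjamini-Hochberg adjusted p = 0.0115). In IVF the largest were TACO1, an activator of COX1 translation (3.18 ± 0.74 from the 4-cell stage; limma, Benjamini-Hochberg adjusted p = 0.0108), and MTIF2, the initiation factor (3.22 ± 0.95 from the 1-cell stage; limma, Benjamini-Hochberg adjusted p = 0.0283). TACO1 was at 0, 0 and 24.9 FPKM in the IVF 8-cell blastomeres, so its rise rested on blastomere 1-3. The only other cells with TACO1 at FPKM of at least 1 were IVF 2-cell 2-1 (2.06) and PA 2-cell 3-1 (9.52). It thus passed the filter only through the blastomere where it was high. The change of MTIF2 was 1.81 without blastomere 1-2 and was not called.

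Of 11 assembly factors tested, METTL15, a methyltransferase of the small subunit RNA, rose in IVF from 0.0191, 0 and 0.0204 FPKM at the 4-cell stage to 63.3 in the 8-cell embryo (5.99 ± 1.27 log2, SE; limma, Benjamini-Hochberg adjusted p = 0.00514). Against the IVF 1-cell stage 2 of the 11 rose (6.03% of all genes were called up) and 1, FASTKD2, fell (8.23% down). In PA, METTL17 rose from the 4-cell stage (2.70 ± 0.74; limma, Benjamini-Hochberg adjusted p = 0.0231), and its change was -0.00779 without blastomere 1-1. Without IVF 8-cell blastomere 1-1 the change of METTL15 was 0.53 from the 4-cell and -1.61 from the 1-cell stage, neither called. Of 8 aminoacyl-tRNA synthetases of the mitochondrion, none rose to the 8-cell stage, where 3.72% to 7.58% of all genes were called up. IARS2 fell from 18.3, 12.4 and 13.4 FPKM at the IVF 4-cell stage to 0.0373 (-3.90 ± 0.88; limma, Benjamini-Hochberg adjusted p = 0.00876) and from 6.62, 7.16 and 22.3 at the PA 4-cell stage to 0.0115 (-3.48 ± 0.88; limma, Benjamini-Hochberg adjusted p = 0.0147), and RARS2 fell by 4.58 ± 0.97 against the IVF 1-cell stage (limma, Benjamini-Hochberg adjusted p = 0.00381). The 3 tested subunits with other names had none called.

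TFAM, which packages and transcribes mitochondrial DNA, was called at an earlier step. It went from 0.0195, 0.0466 and 0.0499 FPKM in the IVF 2-cell embryos to 20.8, 111 and 100.2 in the 4-cell embryos (5.92 ± 0.68 log2, SE; limma, Benjamini-Hochberg adjusted p = 0.000104) and from 1.29, 0.468 and 0.104 to 94.3, 79.3 and 116 in PA (5.96 ± 0.68; limma, Benjamini-Hochberg adjusted p = 0.000165). In the 8-cell embryos it stood at 22.4 (IVF) and 29.4 (PA). It was the 1 gene called at this step among the 8 tested of mitochondrial transcription and replication, where 1.11% (IVF) and 0.394% (PA) of all genes were called. Against the 1-cell embryos the 8-cell change of TFAM was 4.47 ± 0.96 in IVF and 4.83 ± 0.96 in PA (limma, Benjamini-Hochberg adjusted p = 0.00417 and 0.00237).

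The proteins of the cytosolic ribosome are given beside those of the mitochondrial one. Of 48 tested, 9 rose from the IVF 4-cell, 35 from the IVF 1-cell, 27 from the PA 4-cell and 33 from the PA 1-cell to the 8-cell stage, where 2, 4, 8 and 8 of the 42 members and 3.72%, 6.03%, 6.81% and 7.58% of all genes rose. Their summed FPKM went from 87.9 at the IVF 1-cell stage to 3149 in the IVF 8-cell embryo and from 136 to 2754 in PA. The difference between the families was not tested.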

How the data were processed

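Single cells of pig embryos were sequenced by the authors with an amplification for transcripts with and without a polyA tail. They mapped 150-base read pairs to Sscrofa11.1 with HISAT2, counted reads per gene with HTSeq and deposited FPKM, the unit of every value used here. The protocol in the labels describes bulk RNA extraction instead. Columns were matched to samples by the labels, and the cells of an embryo were averaged, since they share their source.

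The members, gene lists and tests were chosen with earlier results of these data known. log2(FPKM + 1) per embryo was fitted with limma 3.58.1 in R 4.3.3 (group means, trended variance) on genes that reached FPKM 1 in 3 or more cells. A call needed a Benjamini-Hochberg adjusted p under 0.05 and a change of at least 2-fold. The scripts were tested on simulated data. Tables and figures used Python 3.11.15, numpy 2.4.6, pandas 2.3.3 and matplotlib 3.10.9. Named were up to 6 called members with the largest rise and fall per comparison, the 6 highest and 3 lowest by mean, members with a known separate role, and from each list the called gene with the largest change. MRPS10, MRPS24, MRPS25 and MRPS26 were added after their values were seen. FPKM were steps of whole reads for 14659 of 14692 expressed genes (within 0.02 reads), which gave the reads quoted. The count test of the authors was not run, and the whole-read values served as a description only. The alternatives were pseudocounts of 0.1 and 5, no filter or FPKM of at least 5, nuclear genes rescaled, median-ratio scaling, means of log2 values, only the groups compared, the embryo number as a block, and leaving out an embryo or the near-repeat libraries. Leaving out an 8-cell blastomere and adding the rows named by identifier were chosen after seeing the data. Promoters came from RefSeq on Sscrofa11.1, where 55 of the 57 members matched. Gene coordinates are those of the deposited table.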

Additional observations from a re-analysis of the deposited data

Results flagged for a closer look

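IVF 4-cell blastomere 2-2 held 28 members at FPKM of at least 1, against 13 in the next of the 9 cells of its group, a gap wide enough to mark it as an outlier by Dixon's criterion. It was also the cell with the highest summed FPKM of the group (737) and it held the highest level of MRPL58. MRPL43 changed in opposite directions between the 4-cell and the 8-cell stage in IVF and PA, with a difference of -7.69 (log2) in the test of the difference itself, and that difference rested on PA 8-cell blastomere 1-4.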

How the results depend on the processing

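The 8-cell stage has 1 embryo per method, so most limits concern it. Of the 25 called changes of members, 15 were kept with a pseudocount of 0.1, 24 with 5, 21 without the filter, 21 with nuclear genes rescaled, 14 with means of log2 values and 9 with only the groups compared. Of 450 fits without an embryo 403 kept the call. Of 78 without an 8-cell blastomere 64 kept it, 7 lost it and 7 turned direction. Over the fits without an embryo or blastomere MRPS11 ran from -0.13 to 4.80 (IVF 4-cell to 8-cell) and -0.038 to 4.89 (IVF 1-cell to 8-cell), MRPL45 from -0.56 to 4.71 (IVF 1-cell to 8-cell), MRPL46 from -0.42 to 6.25 (PA 4-cell to 8-cell) and -1.41 to 5.27 (PA 1-cell to 8-cell), MRPL43 from -1.58 to 4.37 (PA 4-cell to 8-cell) and MRPS24 from -0.22 to 4.34 (PA 1-cell to 8-cell). Likewise METTL15 ran from -1.61 to 4.49 (IVF 1-cell to 8-cell) and METTL17 from -0.00779 to 3.20 (PA 4-cell to 8-cell). The causes were not tested. Members called moved as follows. From the IVF 2-cell to the 4-cell stage (main 0) there were 2 with means of log2 values, 1 without the near repeats and 0 to 6 without an embryo. From the IVF 4-cell to the 8-cell stage (main 3) there were 17 with median-ratio scaling, 1 with means of log2 values, 0 with only the groups compared and 3 to 6 without an embryo or blastomere. From the IVF 1-cell to the 8-cell stage (main 4) there were 16, 7, 9 and 3 to 7. From the PA 2-cell to the 4-cell stage (main 0) there were 2 with median-ratio scaling, 2 with means of log2 values and 3 without the near repeats. From the PA 4-cell to the 8-cell stage (main 8) there were 5 with a pseudocount of 0.1, 17, 4 and 1. From the PA 1-cell to the 8-cell stage (main 9) there were 5 with a pseudocount of 0.1 and 20 with median-ratio scaling. Of IVF against PA at the 4-cell stage (main 0) there were 2 without the near repeats and 0 to 5 without an embryo. Of the change from the 2-cell to the 4-cell stage in IVF against PA there were 0 to 1 without an embryo. Of that from the 4-cell to the 8-cell stage (main 1) there were 4 with a pseudocount of 5, 3 without the filter, 12 with median-ratio scaling, 2 without the near repeats and 0 to 5 without an embryo or blastomere. Median changes moved to 1.64, 2.17 and 1.90 under median-ratio scaling (IVF 4-cell, IVF 1-cell and PA 1-cell to 8-cell), and to 2.34 with a pseudocount of 0.1 and 2.39 at FPKM of at least 5 from the PA 4-cell stage. As a share of nuclear FPKM the members took 0.141%, 0.139% and 0.341% at the IVF 1-, 2- and 8-cell and 0.109% and 0.481% at the PA 4- and 8-cell stages. With the embryo number as a replicate block, 3, 6, 7 and 8 members were called in the comparisons with the 8-cell stage (IVF 4-cell, IVF 1-cell, PA 4-cell, PA 1-cell), and 22 of the 25 calls were kept. Same-numbered embryos correlated by at most 0.079 once the near repeats were left out, so no pairing by number was seen. A low correlation cannot tell whether such embryos shared a culture or sow. The 9 rows named by identifier raised the PA counts to 10 and 11.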
